A study of Mus musculus with 43 samples.

Results

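Cell cycle genes were followed in mouse lung as a set of 50 named genes, 19 that act in or just before DNA synthesis (S-phase genes) and 31 that act from late G2 through cell division (mitotic genes). The genes were chosen by name, and their rows were found through the NCBI Gene ID. All 50 were among the 24475 genes of the count table, and all 50 were among the 15979 genes that passed the filter on low counts and were tested. RNA of whole lung from 43 female mice had been sequenced. The mice were 8 to 12 weeks old on a hybrid 129S6/C57BL/6 background, and those used to assess the antibodies carried human sequence in place of Il33, of Il4 and of the ectodomain of Il4ra. House dust mite extract (HDM), an allergen, was put into the nose 3 times a week.

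The 7 groups were saline without antibody (n = 5), 11 weeks of HDM without antibody (n = 6), 19 weeks of HDM without antibody (n = 7), and 4 antibody groups, all exposed to HDM for 19 weeks. These received isotype control alone (n = 7), itepekimab, which is anti-IL-33, plus isotype (n = 6), dupilumab, which is anti-IL-4Ra, plus isotype (n = 7), or both, that is anti-IL-33 plus anti-IL-4Ra, called the combination (n = 5). The labels do not say how long saline was given or when the antibodies were started, and the design text names HDM courses of 4, 15 or 19 weeks where the labels name 11 or 19. Titles number the mice within a group. Nothing further says that the samples are separate animals, so the p-values measure the spread between these samples.

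As background, cyclin E with its kinase releases E2F factors, which switch on the genes that license replication origins, unwind DNA and supply nucleotides. Later, cyclins A and B with Cdk1, together with FoxM1 and the B-Myb-MuvB complex, drive the genes that condense chromosomes, build the spindle and split the cell, and the anaphase-promoting complex then destroys the cyclins. In adult lung few cells divide at rest, and immune, epithelial and endothelial cells can enter the cycle during inflammation. In bulk tissue, fewer cells of a type and less RNA per cell cannot be told apart.

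The promoters of the 2 phases carry different letters, and 6 are shown because their genes recur in the results. RefSeq promoter windows (assembly GRCm38.p6, which is mm10), 300 bases long from 250 before to 50 after the annotated start, were found for 42 of the 50 genes, 16 S-phase and 26 mitotic. The search covered both strands for CCAAT, for TTTGAA and TTTAAA (letters of the cell cycle homology region, the element bound by MuvB), and for the E2F-type letters TTTGGCGC, TTTCCCGC and TTTGGCGG. No 2 of these motifs overlap in the sequences printed. Each sequence reads 5′ to 3′ on the gene's strand, ends where the annotated gene begins, and has motif letters of either strand in capitals. The mitotic examples are Cdk1 (minus strand, chr10:69352913-69353082), the cyclin-dependent kinase of mitosis, Cdc20 (minus strand, chr4:118437344-118437513), an activator of the anaphase-promoting complex, Ube2c (plus strand, chr2:164769759-164769928), the ubiquitin-conjugating enzyme of that complex, and Kif11 (plus strand, chr19:37376212-37376381), the motor that pushes spindle poles apart.
Cdk1: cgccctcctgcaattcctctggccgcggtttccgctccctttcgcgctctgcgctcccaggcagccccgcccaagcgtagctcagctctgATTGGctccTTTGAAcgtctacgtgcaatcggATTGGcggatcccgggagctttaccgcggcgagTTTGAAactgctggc
Cdc20: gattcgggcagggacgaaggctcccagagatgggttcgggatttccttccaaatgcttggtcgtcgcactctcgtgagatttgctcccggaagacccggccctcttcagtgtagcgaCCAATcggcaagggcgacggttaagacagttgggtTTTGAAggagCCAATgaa
Ube2c: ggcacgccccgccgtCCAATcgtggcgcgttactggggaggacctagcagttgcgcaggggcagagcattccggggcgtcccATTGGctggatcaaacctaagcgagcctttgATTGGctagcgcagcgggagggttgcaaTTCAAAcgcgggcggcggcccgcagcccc
Kif11: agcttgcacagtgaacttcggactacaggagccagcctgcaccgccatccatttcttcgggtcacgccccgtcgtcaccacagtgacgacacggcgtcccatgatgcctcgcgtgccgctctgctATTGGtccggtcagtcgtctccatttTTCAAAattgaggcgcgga

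The S-phase examples are Mcm6 (minus strand, chr1:128359706-128359875) and Mcm5 (plus strand, chr8:75109298-75109467), both subunits of the replicative helicase.
Mcm6: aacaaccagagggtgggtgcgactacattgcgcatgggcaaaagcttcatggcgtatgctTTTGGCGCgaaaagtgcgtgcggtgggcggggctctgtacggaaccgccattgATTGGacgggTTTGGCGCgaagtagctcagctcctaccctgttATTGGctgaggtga
Mcm5: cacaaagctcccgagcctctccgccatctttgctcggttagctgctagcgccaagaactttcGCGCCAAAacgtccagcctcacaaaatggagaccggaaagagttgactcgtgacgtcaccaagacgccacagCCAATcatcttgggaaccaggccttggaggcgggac

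TTTGAA, which all 4 mitotic examples hold, was in 21 of 26 mitotic promoters (80.8%), in 2 of 16 S-phase promoters (12.5%) and in 18.1% of all 27025 promoter windows. At least 1 of the 3 E2F-type motifs was in 6 of 16 S-phase promoters (37.5%), in 0 of 26 mitotic promoters and in 2.16% of all windows. CCAAT was in 84.6% of mitotic, 62.5% of S-phase and 37.9% of all windows, and TTTAAA in 8 of 26 mitotic, 4 of 16 S-phase and 13.2% of all windows. In Mcm6 the letters TTTGGCGC occur at 110 and 47 bases before the start, recorded as positions -110 and -47. These matches describe letters in a window and are no evidence of binding.

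Total counts ran from 11.9 to 26.7 M per library (M, 1000000 counts). In saline, replicate 3 had summed levels of 575 CPM (counts per 1000000 counts) for 5 basal epithelial genes and 1579 CPM for 5 genes of skin epithelium, against 2.15 to 3.19 and 4.68 to 7.44 CPM in the other saline mice. The 19-week mouse numbered 1 had 193 and 422 CPM of the same genes, and no other HDM library exceeded 23.4 and 33.9 CPM. In 10 libraries (2 at 19 weeks of HDM, 2 with anti-IL-33, 3 with anti-IL-4Ra and 3 of the combination) expression rose steeply with the GC content of the transcript, by more than 0.75 on the log2 scale per 10 percentage points of GC relative to the mean library. They are called the steep libraries. Erythroid genes summed to 193100 CPM in anti-IL-4Ra replicate 2, to 29310 in anti-IL-4Ra replicate 6 and to 21690 in combination replicate 1, and all 3 of these libraries were steep.

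After 11 weeks of HDM, cell cycle genes were higher than in saline in both phases. Of the 50 genes, 22 rose and 0 fell at an adjusted p under 0.05 in edgeR, where 8.65% of all genes tested rose (1382 of 15979) and 6.74% fell. The 22 were 6 of 19 S-phase genes and 16 of 31 mitotic genes. Measured as log2 fold change, 48 of the 50 were positive, with a median of 0.71 for S-phase genes, 1.05 for mitotic genes and 0.00 for all genes tested. The mean log2 CPM of the S-phase genes was 3.10 ± 0.18 (SD, n = 5) in saline and 3.81 ± 0.29 (n = 6) at 11 weeks, and that of the mitotic genes was 2.30 ± 0.52 and 3.28 ± 0.46. The S-phase mean of every 11-week mouse (3.35 to 4.20) was above every saline mouse (2.92 to 3.32). The mitotic means overlapped, since saline replicate 3, the mouse with skin and basal genes, stood at 3.06 and the lowest 11-week mouse at 2.54. Without that saline library and the 19-week mouse numbered 1, 30 of the 50 genes were called higher, where 14.1% of all genes were called. The count of the 50 was 10, 11 and 10 without saline replicate 2, 4 or 5. It was 11 without 11-week replicate 8, the mouse with the highest level of 41 of the 50 genes in its group. Over all genes 12.1%, 12.1%, 12.9% and 13.5% were called in the same order, against 15.4% in the main fit.

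Markers of other cell types moved in the same comparison. The 8 plasma cell genes summed to 336.5 to 867.5 CPM in saline and 1999 to 4965 CPM at 11 weeks (6 of 8 rose), the 9 genes of interstitial and monocyte-derived macrophages to 375 to 701 and 2902 to 9987 CPM (6 rose, 1 fell), and the 8 goblet genes to 18.5 to 71.9 and 652 to 1573 CPM (7 rose). The 8 alveolar macrophage genes summed to 278 to 810 and 7248 to 15390 CPM, with 1 called higher and 2 lower. The 7 endothelial genes summed to 2370 to 3132 CPM in saline and 1343 to 2148 CPM at 11 weeks, and 2 of them were called lower. The mean GC slope was -0.63 in saline and -0.38 at 11 weeks. With the slope as a covariate 36 of the 50 cell cycle genes were called higher. Over all genes that covariate also gave more calls, 27.9% (2380 higher and 2077 lower) against 15.4% in the main fit. The part of these cell types in the cell cycle result was not tested.

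**Figure D1:**
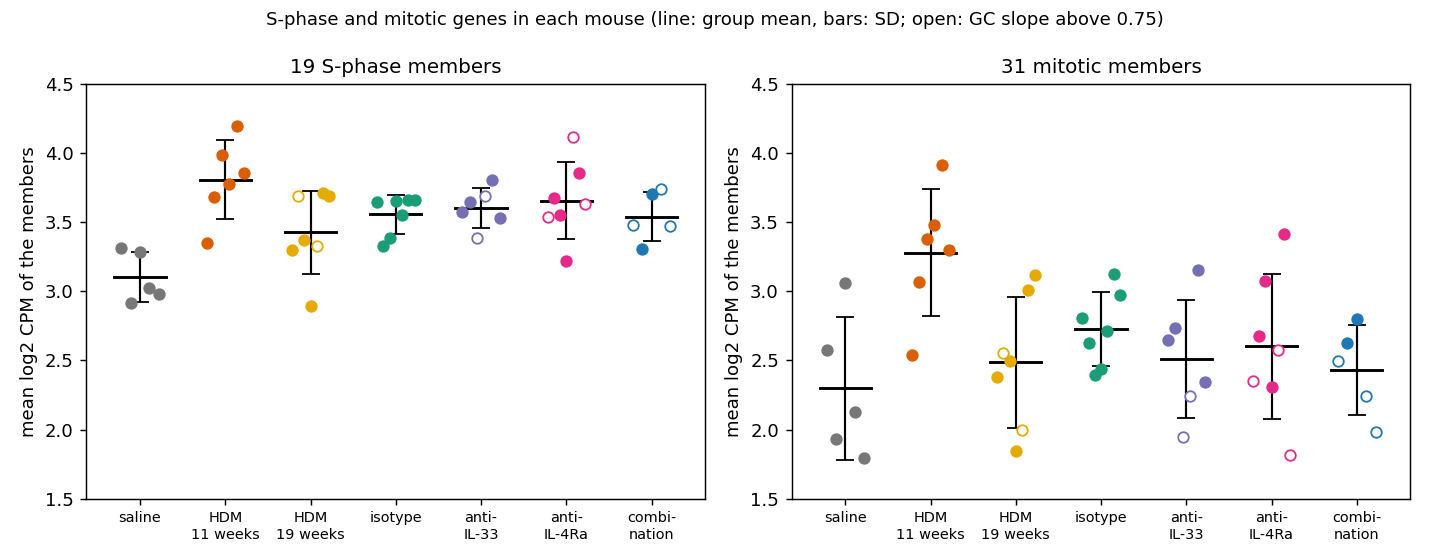
Mean log2 CPM of the 19 S-phase genes (left) and the 31 mitotic genes (right) in each of 43 mice by group. Points are mice, lines group means, bars SD, and open points the 10 steep libraries. At 11 weeks the S-phase means lie between 3.35 and 4.20, above all saline mice, and the mitotic mean of the group falls from 3.28 at 11 weeks to 2.49 at 19 weeks.

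Among the G1/S regulators, cyclin E1 moved most. Ccne1 (chromosome 7, 38097984 to 38107490) stood at 1.73, 1.32, 1.69, 1.67 and 1.35 CPM in the 5 saline mice and at 3.03 to 6.21 CPM, median 4.33, at 11 weeks. Every exposed mouse was above every saline mouse, and the log2 fold change was 1.51 (SE 0.25), or 2.85-fold, with an adjusted p of 1.95e-05 (edgeR quasi-likelihood test), the lowest of the 50 genes. Ccne2, its paralogue, was at 0.72 to 2.69 CPM in saline and 1.85 to 5.49 CPM at 11 weeks. The groups overlapped, with a log2 fold change of 1.21 (SE 0.38, adjusted p = 0.0215). E2f1, the transcription factor that cyclin E activity releases, lay at 7.60 to 9.07 CPM in saline and 10.4 to 12.9 CPM at 11 weeks. These groups did not overlap, yet its log2 fold change of 0.56 had an adjusted p of 0.372 in the model fitted over all 7 groups, in which the spread of the antibody groups (up to an SD of 19.2 CPM) also counts.

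Of the 12 genes of origin licensing and the replication fork, 2 rose. Uhrf1, which recognises hemimethylated DNA behind the fork, went from 7.20 ± 1.59 CPM in saline to 17.0 ± 4.9 CPM (log2 fold change 1.24, adjusted p = 0.00103, no overlap). Gins2, a part of the helicase complex, had a log2 fold change of 1.15 and an adjusted p of 0.0101. The helicase subunits were flatter. From Mcm2 to Mcm7 the log2 fold changes were 0.71, 0.50, -0.15, 0.61, 0.38 and 0.14, and none of the 6 passed. Pcna, the sliding clamp of DNA polymerase, was at 42.4 to 54.1 CPM in saline and 51.8 to 69.6 CPM at 11 weeks (0.39, adjusted p = 0.358). Nucleotide supply was split. Rrm2, the regulated subunit of ribonucleotide reductase, rose by 1.19 (adjusted p = 0.00964) and the thymidine kinase gene Tk1 by 1.14 (adjusted p = 0.00768), while Rrm1, the other reductase subunit, had 42.5 ± 5.6 CPM in saline and 40.8 ± 6.1 CPM at 11 weeks.

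Among the 31 mitotic genes the entry regulators moved most uniformly, with 6 of 7 called. Cdk1 was at 5.42, 2.75, 6.53, 3.34 and 1.78 CPM in saline and at 6.00 to 15.7 CPM, median 10.2, at 11 weeks. Only the highest saline mouse, replicate 3, reached into the exposed range, and the log2 fold change was 1.44 (SE 0.32, adjusted p = 0.00106). Foxm1, the transcription factor of G2 genes, averaged 4.47 ± 0.86 CPM in saline and 10.8 ± 3.5 CPM at 11 weeks. It rose by 1.27 on the log2 scale with an adjusted p of 0.000672, and the groups did not overlap. Aurka, a centrosome kinase, rose by 1.34, Plk1, a kinase of mitotic entry and exit, by 1.17, Ccna2 (cyclin A2) by 1.11 and Ccnb2 (cyclin B2) by 1.05 on the log2 scale. Ccnb1 (cyclin B1) had 0.80 with an adjusted p of 0.115.

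Chromosome and centromere genes followed, with 5 of 8 called. Mki67, which coats mitotic chromosomes and is widely used as a proliferation marker, was at 50.5, 32.1, 50.2, 32.2 and 23.6 CPM in saline and at 47.9 to 121 CPM, median 79.9, at 11 weeks. Of the 6 exposed mice, 1 lay below the highest saline mouse, and the log2 fold change was 1.12 (SE 0.39, adjusted p = 0.0402). The 3 passenger complex genes Aurkb, Birc5 and Cdca8, which correct chromosome attachments, rose by 1.09, 1.11 and 1.21, and Cenpa, the histone of the centromere, by 0.88. Top2a, which untangles DNA, stood at 0.88 with an adjusted p of 0.0563. In the set of Cdc20, Ube2c and Cdca3, 2 of 3 were called, Ube2c at 1.39 and Cdca3 at 1.28, beside Cdc20 at 1.11 with an adjusted p of 0.0838.

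The remaining roles are the spindle, its checkpoint and cytokinesis. Spindle motors and assembly factors gave 2 of 5, Tpx2 (adjusted p = 0.0383) and Hmmr (log2 fold change 1.21), and Kif11 was at 0.50 with an adjusted p of 0.565. Of the checkpoint genes, which delay anaphase, Bub1b rose by 0.91 with no overlap between groups, and Bub1 was level at 4.42 ± 1.88 CPM in saline and 4.59 ± 1.45 CPM at 11 weeks. Midzone and cytokinesis genes gave 0 of 5 by edgeR (1 at an unadjusted p under 0.05), with log2 fold changes from 0.31 for Anln, an actin-binding scaffold of the cleavage furrow, to 1.09 for the kinesin gene Kif20a. Of all 50 genes, 9 had groups that did not overlap, 7 of them S-phase genes and 2 mitotic. Of all genes tested, 11.1% lay wholly higher at 11 weeks. Some mitotic genes overlapped only through saline replicate 3, the mouse with skin and basal genes. For Cdk1, Aurka, Plk1 and Cdca8 the other saline mice reached 5.42, 2.5, 3 and 2.26 CPM. The lowest 11-week mice had 6, 3.47, 4.31 and 3.14 CPM. Mki67 and Top2a also overlapped through saline replicate 1 (50.45 and 36.39 CPM), against 47.85 and 24.6 CPM in 11-week replicate 1.

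**Figure D2:**
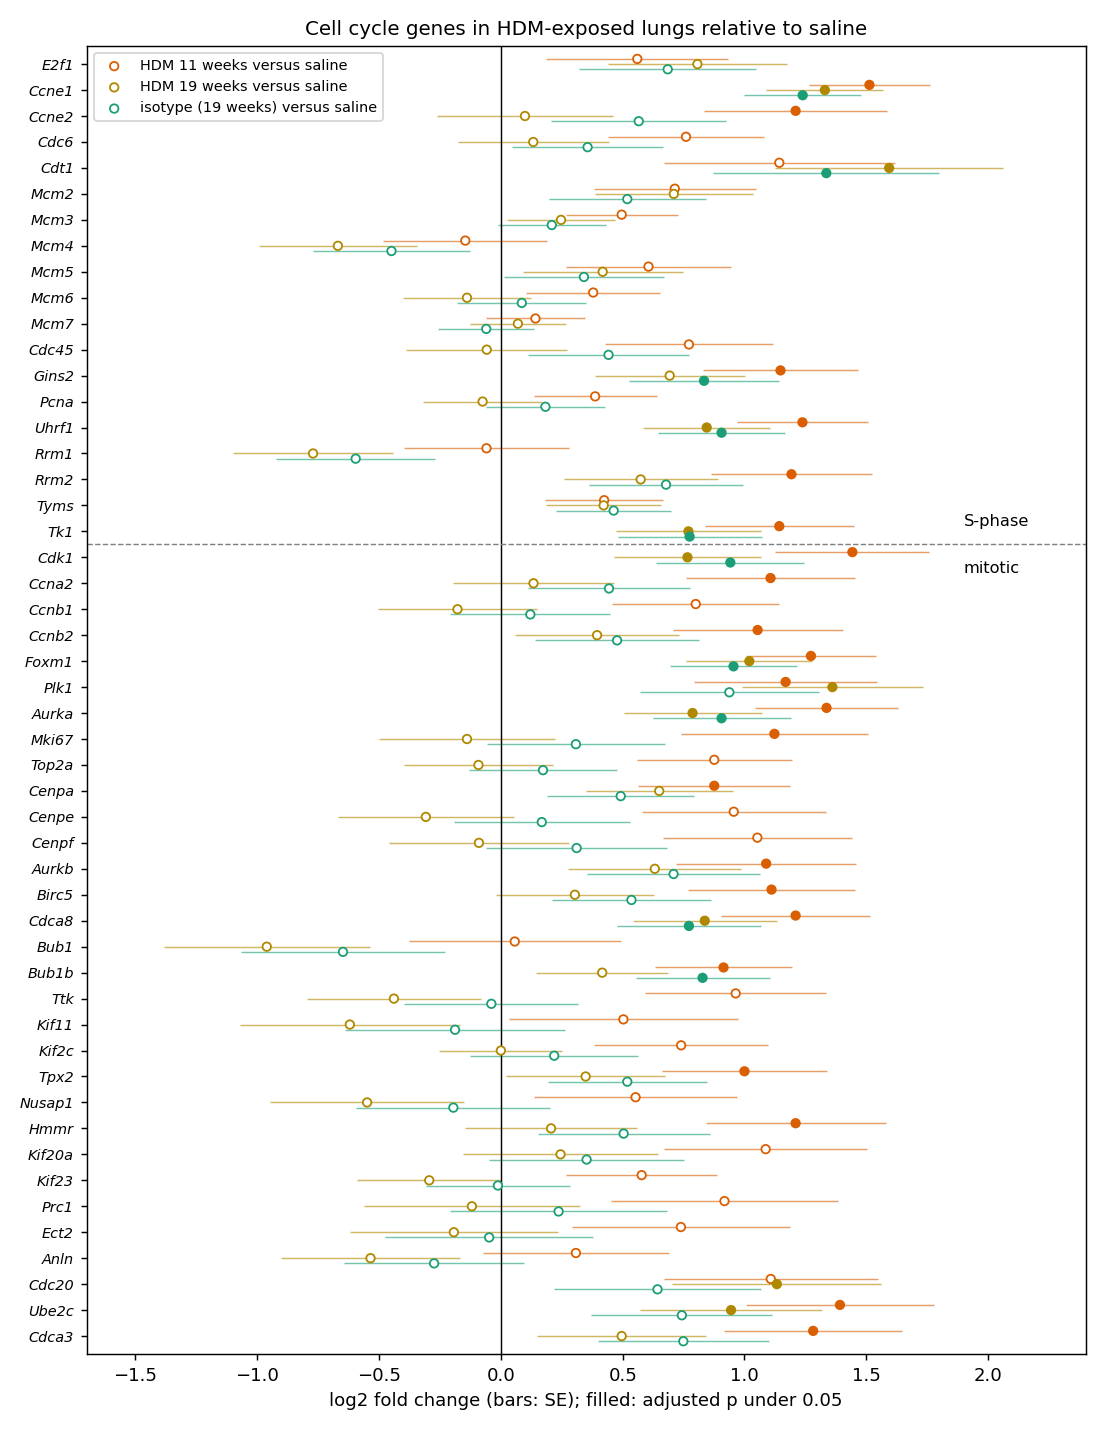
Log2 fold changes of the 50 genes relative to saline, S-phase genes above the dashed line and mitotic genes below it, at 11 weeks of HDM, 19 weeks of HDM and 19 weeks of HDM with isotype antibody. Points are estimates, bars SE, and filled points passed an adjusted p under 0.05 (22, 11 and 10 genes). The 3 comparisons share the saline mice.

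Other genes of the cycle were listed by function, to be read against the 8.65% of all genes that rose and the 6.74% that fell. Of 61 further mitotic genes, 21 rose and 0 fell at 11 weeks, among them Pbk (a mitotic kinase, log2 fold change 1.64), Iqgap3 (1.72), Spc25 (a kinetochore subunit, 1.51) and Cdca5 (which protects cohesin, 1.42). Of 38 further replication genes, 8 rose and 0 fell, with Chaf1b, a histone chaperone, at 1.21 and Orc1, of the origin recognition complex, at 1.53. The list called G1 cyclins and kinases gave 1 of 11, and that gene, Cdc25a (0.50), encodes a phosphatase. The core of the anaphase-promoting complex gave 1 of 16 (Anapc15, 0.87). The RB, E2F and DREAM genes gave 2 of 18, the repressor E2Fs E2f7 (1.33) and E2f8 (1.15). Of 7 inhibitors of cyclin-dependent kinases, 0 rose and 1 fell, Cdkn2b by 0.48 on the log2 scale. The median log2 fold change was 0.81 for the further mitotic genes, 0.31 for the further replication genes and between -0.45 and 0.19 for the other 4 lists.

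At 19 weeks of HDM fewer of the genes stood above saline. By edgeR 11 of the 50 rose and 0 fell, where 19.2% of all genes tested rose and 15.6% fell. The 11 were 4 of 19 S-phase and 7 of 31 mitotic genes, a share near that of all genes. The median log2 fold change was 0.42 for S-phase genes, 0.21 for mitotic genes and 0.01 for all genes. The mitotic median was 0.03 without saline replicate 5 and 0.39 without saline replicate 3, and the S-phase median was 0.27 without 19-week replicate 2. Cdt1, which loads the helicase, was at 2.54, 4.35, 5.70, 4.98 and 4.99 CPM in saline and at 5.09 to 22.9 CPM, median 12.0, at 19 weeks. Of the 7 exposed mice, 1 lay within the saline range, and the log2 fold change was 1.59 (SE 0.47, adjusted p = 0.0082), the largest of the set. Cdt1 also has the highest transcript GC content of the set (59.0%). Its highest values, 16.8, 19.3 and 22.9 CPM, were in 19-week replicates 1, 2 and 7, with GC slopes of 0.59, 0.87 and 0.78. The other 19-week mice had 5.09 to 12.0 CPM, and saline slopes ran from -0.86 to -0.36. Cdc20 was highest in the same replicates (13.9, 20.9 and 13.4 CPM). Ccne1 was at 2.85 to 5.30 CPM, median 3.73, above all saline mice (1.33, adjusted p = 4.74e-05). Plk1 rose by 1.36, Cdc20 by 1.13, Foxm1 by 1.02, Ube2c by 0.94 and Aurka by 0.79, while the remaining calls, Uhrf1, Cdca8, Tk1 and Cdk1, lay between 0.77 and 0.84.

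Of the 50 genes, 18 had a negative log2 fold change at 19 weeks, 5 S-phase and 13 mitotic, and 0 of them passed in edgeR (3 at an unadjusted p under 0.05). Rrm1 stood at 50.02, 42.9, 40.4, 44.6 and 34.8 CPM in saline and at 17.5 to 32.9 CPM, median 26.9, at 19 weeks. The groups did not overlap, where 14.7% of all genes lay wholly lower, with a log2 fold change of -0.77 (SE 0.33, adjusted p = 0.0616). DESeq2 called Rrm1 lower (-0.79, adjusted p = 0.0391), as did edgeR with the size factors of DESeq2 (adjusted p = 0.0499). Mcm4 had -0.67 (adjusted p = 0.0995) and Bub1 -0.96 (adjusted p = 0.0709). Rrm1 and Mcm4 were both called lower without the steep libraries, with the compared groups alone and with voom. No midzone, spindle motor or checkpoint gene was called by edgeR, and 1 of these 13 genes, Bub1, had an unadjusted p under 0.05. The count of 11 was 6, 5, 5 and 6 (1 of the last 6 lower) without saline replicate 1, 2, 4 or 5, 6 without 19-week replicate 2 or 8, and 14 without the 2 libraries with skin and basal genes. With each library's GC slope as a covariate it was 7, and the mitotic median was 0.55 in place of 0.21. The share of all genes called ran from 27.3% to 36% in these settings, against 34.8% in the main fit. The further replication and mitotic genes were called in shares near or below the 19.2% of all genes that rose and the 15.6% that fell. Of the further replication genes, 3 of 38 rose and 6 fell, among the latter the primase gene Prim1 by 1.18 and the polymerase gene Pola1 by 1.02 on the log2 scale. Of the further mitotic genes, 9 of 61 rose and 1 fell, with separase (Espl1) at 1.63 and Incenp, the scaffold of the passenger complex, at 1.05.

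**Figure D3:**
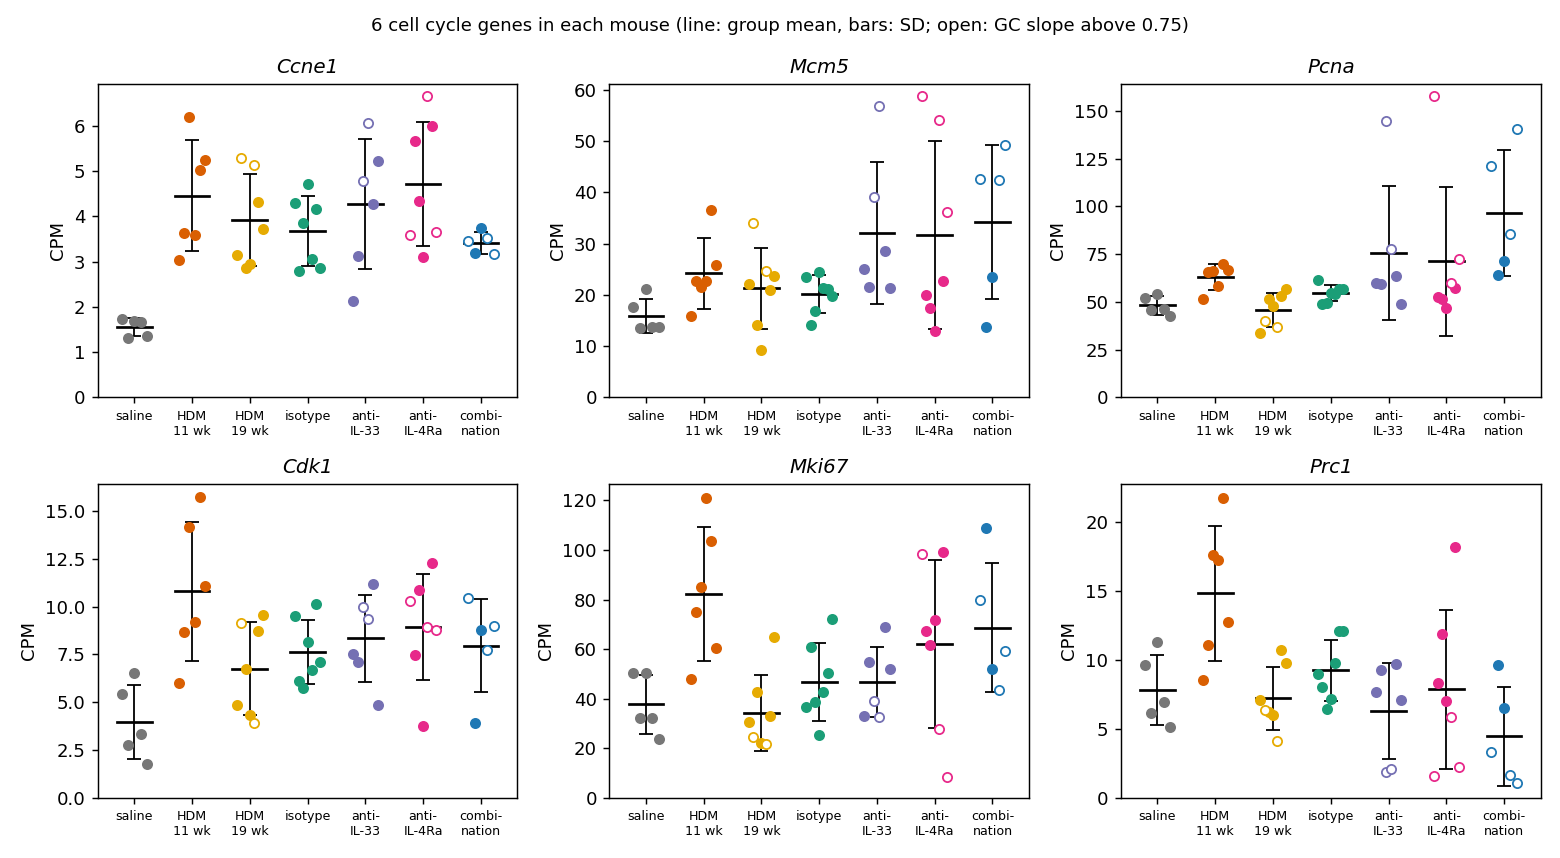
CPM of Ccne1, Mcm5 and Pcna (S-phase) and Cdk1, Mki67 and Prc1 (mitotic) in each mouse, by group. Points are mice, lines group means, bars SD, and open points steep libraries. Ccne1 is at least 2.14 CPM in every HDM mouse and at most 1.73 CPM in saline, Mki67 is highest at 11 weeks (mean 82.1 CPM), and the highest Pcna values are in steep libraries.

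Between 11 and 19 weeks of HDM, lower values were seen in most mitotic genes, and none passed the adjusted test. In edgeR 0 of the 50 genes were called, 29 had an unadjusted p under 0.05 (all lower at 19 weeks, 23 of them mitotic), and DESeq2 called 1. Over all genes tested, 0.106% were called (0.0876% higher, 0.0188% lower), and 8.63% were higher and 5.74% lower at an unadjusted p under 0.05. The log2 difference was negative for 46 of the 50 genes, with a median of -0.84 for mitotic genes, -0.39 for S-phase genes and 0.00 for all genes. GC slopes ran from -0.56 to -0.07 at 11 weeks and from -0.41 to 0.87 at 19 weeks, where 2 libraries were steep. Ttk, a checkpoint kinase, was at 2.07 to 4.91 CPM, median 2.94, at 11 weeks and at 0.58 to 1.78 CPM, median 1.12, at 19 weeks. It was the only one of the 50 whose groups did not overlap, where 0.701% of all genes lay wholly lower, with a log2 difference of -1.40 (SE 0.34, adjusted p = 0.113). The 19-week values of 0.75 and 0.58 CPM were in the steep replicates 2 and 7, and the others were at 1.04 to 1.78 CPM. Cenpe, a centromere motor, had -1.26 and Mki67 -1.26 (both with an adjusted p of 0.15), and Ccne2 -1.11. Ccne1, in contrast, had means of 4.45 CPM at 11 weeks and 3.92 CPM at 19 weeks. Without 19-week replicate 9, which was highest in 20 of the 50 genes, 2 were called lower, where 0.288% of all genes were called.

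The isotype group, exposed for 19 weeks and given control antibody, was not told apart from 19 weeks of HDM without antibody in any of the 50 genes by edgeR (0 called, 0 at an unadjusted p under 0.05; over all genes 0 called, 0.469% higher and 1.66% lower unadjusted). The median log2 difference was 0.06 for S-phase and 0.25 for mitotic genes. Against saline, 10 genes rose and 0 fell with isotype, 5 in each phase, where 13.0% of all genes rose and 12.4% fell. Ccne1 was at 2.80 to 4.72 CPM, median 3.86, again above all saline mice (1.24, adjusted p = 0.000128). Foxm1 had 0.95, Cdk1 0.94, Aurka and Uhrf1 0.91 each, and Bub1b 0.83. The count was 3, 4 and 4 without saline replicate 2, 4 or 5, and 6 without isotype replicate 4 or 9. It was 13 without saline replicate 3 and the 19-week mouse numbered 1. The share of all genes called ran from 20.7% to 26.6% in these settings, against 25.3% in the main fit. Since the saline mice serve in this comparison and in those at 11 and 19 weeks, the 3 are not independent. The genes called in all 3 were Ccne1, Uhrf1, Tk1, Cdk1, Foxm1, Aurka and Cdca8.

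Single antibodies moved no gene of the set past the threshold. With anti-IL-33, 0 of 50 genes were called against isotype by edgeR (2 at an unadjusted p under 0.05, both higher; over all genes 0 called, 14.0% higher and 3.97% lower unadjusted). No member separated the groups fully, where 0.0814% of all genes lay wholly higher and 0.238% wholly lower. The median was 0.20 for S-phase and -0.13 for mitotic genes. With anti-IL-4Ra, 0 were called (2 unadjusted, E2f1 at 0.92 and Mcm5 at 0.65; over all genes 0 called, 12.4% higher and 1.67% lower unadjusted), with medians of 0.17 and -0.01. Again no member separated the groups fully, where 0.0188% of all genes lay wholly higher and 0.0375% wholly lower. DESeq2 called 0 in both. Mki67 was at 46.7 ± 15.8 CPM with isotype (n = 7), 46.7 ± 14.3 CPM with anti-IL-33 (n = 6) and 62.0 ± 33.9 CPM with anti-IL-4Ra (n = 7). The anti-IL-4Ra mice ranged from 8.24 to 99.2 CPM, wider than any other group. The 3 steep libraries of that group had 8.24, 27.6 and 98.2 CPM, and the mouse at 99.2 CPM was not steep. All antibody comparisons share the isotype mice.

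With the combination, 3 of the 50 genes rose against isotype by edgeR and 0 fell, where 12.6% of all genes rose and 6.32% fell. All 3 were S-phase genes. DESeq2, and edgeR with its size factors, also called Mcm6 lower (-0.71 in both, adjusted p = 0.0291 and 0.0473), against -0.73 and an unadjusted p of 0.00958 here. Pcna was at 121, 64.3, 71.2, 85.8 and 140 CPM in the combination mice numbered 1, 2, 3, 5 and 8, and at 49.1 to 61.6 CPM with isotype. No mouse overlapped, and the log2 fold change was 0.82 (SE 0.24, adjusted p = 0.0249). Ccne2 was at 9.32, 5.59, 4.11, 3.28 and 4.49 CPM against 1.95 to 3.10 CPM, likewise without overlap (1.22, SE 0.35, adjusted p = 0.0226). Of all genes, 1.83% lay wholly higher. E2f1 was at 59.3, 11.3, 13.8, 26.5 and 29.2 CPM against 9.92 to 19.3 CPM (1.09, SE 0.35, adjusted p = 0.0339). The 3 high E2f1 values are those of the 3 steep libraries, numbered 1, 5 and 8, and the 2 other mice lay within the isotype range.

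Leaving out the steep libraries left no call among the 50, where 4.18% of all genes were called, against 19% in the main fit. E2f1 then had a log2 fold change of -0.06 (adjusted p = 0.845), Pcna 0.31 (adjusted p = 0.174) and Ccne2 1.08 (adjusted p = 0.0881), on 2 combination mice. These were replicate 2, with a GC slope of -1.01, the lowest of all 43 libraries, and replicate 3, with -0.15. The isotype slopes ran from -0.45 to 0.38, so GC slope still differed between the groups in this setting. With the GC slope as a covariate, E2f1 had 0.46 (adjusted p = 0.0797), Pcna 0.58 (adjusted p = 0.0456) and Ccne2 1.24 (adjusted p = 0.018). Without combination replicate 1, the library with 21690 CPM of erythroid genes, 0 were called as well, where 1.29% of all genes were called. Without combination replicate 2, 12 were called (7 higher, 5 lower), without replicate 3, 7, and without replicate 8, 1. Over all genes 49%, 30.3% and 2.9% were called in the same order. Mitotic genes had a median of -0.29 and 0 of 31 called by edgeR (0 higher and 2 lower at an unadjusted p under 0.05, Aurka at -0.67 and Prc1, which bundles midzone microtubules, at -1.05). In the 2-by-2 layout of the antibodies, the interaction, which is the combination effect beyond the sum of the single effects, gave 0 of 50 by edgeR and by DESeq2. Of the 50, Ccne1 alone had an unadjusted p under 0.05 (-0.67, adjusted p = 0.995), where 1.01% of all genes were lower at that level. Of the other cycle genes, 1 of 11 G1 cyclins and kinases, 2 of 7 kinase inhibitors, 1 of 18 RB, E2F and DREAM genes, 2 of 38 replication genes, 6 of 61 mitotic genes and 3 of 16 core genes of the anaphase-promoting complex rose with the combination, and 0, 0, 1, 1, 1 and 0 fell. Of these 18 genes, 3 were also called in the same direction without the steep libraries: the kinase inhibitor gene Cdkn1c (2.10, and 1.17 without them), E2f3 (-1.05 and -0.66) and the tubulin gene Tuba1b (1.17 and 0.61).

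The balance of the phases, taken as the S-phase mean minus the mitotic mean of log2 CPM in each mouse, was lowest at 11 weeks of HDM. Mice given no antibody had a balance of 0.80 ± 0.36 (saline), 0.53 ± 0.20 (11 weeks) and 0.94 ± 0.26 (19 weeks). The isotype mice had 0.83 ± 0.22 and those of the combination 1.11 ± 0.37. For the single antibodies the balance was 1.09 ± 0.32 (IL-33 blocked) and 1.05 ± 0.51 (IL-4Ra blocked). All these groups overlapped their neighbours. Steep libraries had the larger balance in each of the 4 groups that hold any. In the order 19 weeks without antibody, anti-IL-33, anti-IL-4Ra and combination, their means were 1.23, 1.44, 1.51 and 1.32, against 0.82, 0.92, 0.71 and 0.79 in the remaining libraries of those groups. Without steep libraries the 5 groups at 19 weeks thus had mean balances between 0.71 and 0.92. Median transcript GC content was 50.6% for S-phase genes and 47.5% for mitotic genes.

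**Figure D4:**
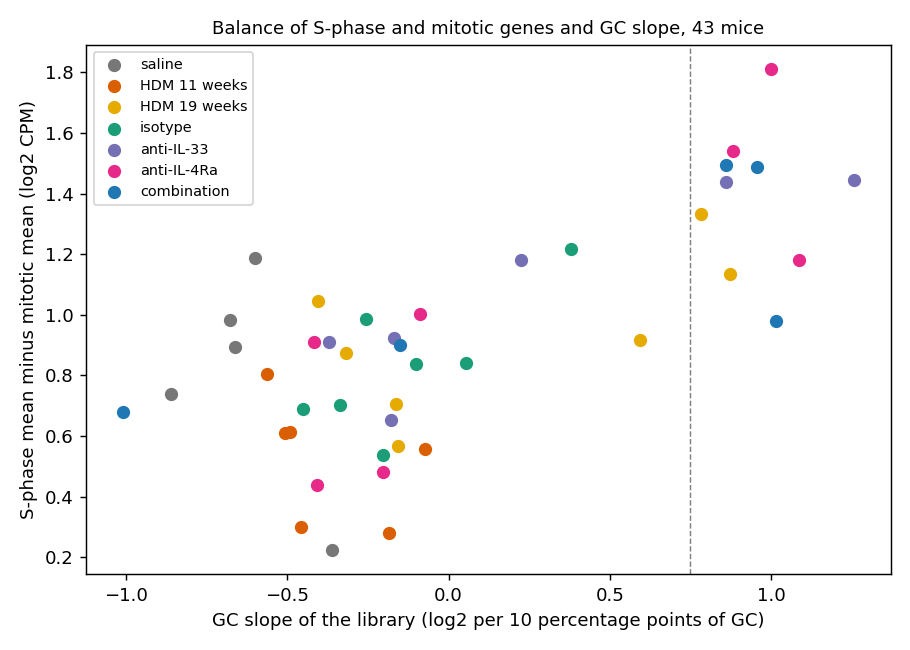
S-phase mean minus mitotic mean (log2 CPM) against the GC slope of the library (log2 per 10 percentage points of GC) for 43 mice, coloured by group. The dashed line marks a slope of 0.75. The 10 libraries to its right have balances from 0.98 to 1.81, and the 11-week mice lie between 0.28 and 0.80.

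Gene by gene, the steep libraries were higher or lower in genes of both phases. In the 4 groups with steep libraries, 9 of 19 S-phase genes and 7 of 31 mitotic genes had a higher mean log2 level in the steep ones. Cdt1 (GC 59.0%) averaged 28.5 CPM in the 10 steep libraries and 9.71 CPM in the 15 others, E2f1 (58.1%) 34.6 and 12.9 CPM, and Plk1 (56.3%), a mitotic gene, 12.7 and 6.55 CPM. At the other end Ect2 (41.8%), a cytokinesis gene, averaged 1.83 and 5.98 CPM, Kif11 (41.7%) 2.23 and 6.95 CPM, and Rrm1 (44.5%), an S-phase gene, 13.0 and 29.5 CPM. Across the 50 genes, GC content and the steep-minus-other difference had a Pearson correlation of 0.73 and a Spearman correlation of 0.68, given as a description since the genes share the same libraries. Pcna (42.0%) departed from it, with 93.8 CPM in steep libraries and 54.6 CPM in the others.

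At 11 weeks, replicate 8 was highest for 41 of the 50 genes and replicate 1 lowest for 47. In saline, replicate 3 was highest for 36, and with anti-IL-4Ra, replicate 7 for 26. For Mki67 the 11-week mice numbered 1 and 4 had 47.9 and 121 CPM, and for Cdk1 the mice numbered 1 and 8 had 6.00 and 15.7 CPM. Of the 50 genes, 36 had their highest group mean at 11 weeks, 28 of them mitotic. The combination group had the highest mean for 8 genes, 7 of them S-phase, and the lowest for 15, 11 of them mitotic, and saline had the lowest for 25. The combination means include 3 steep libraries. The mitotic mean log2 CPM was 2.241 in those 3, 2.715 in the 2 other combination mice and 2.725 with isotype. The S-phase means were 3.561, 3.504 and 3.555 in the same order. Thymocyte genes were looked at because dividing thymocytes could enter a lung sample. The 9 listed genes, of which 5 passed the filter on low counts, summed to 73.3 to 112 CPM at 11 weeks and 112 to 153 CPM in saline. The thymocyte recombinase gene Rag1 was at 0 in 3 of 6 and 2 of 5 of these libraries. The sum does not show which of the genes it came from, so it is not a measure of thymocytes.

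**Figure D5:**
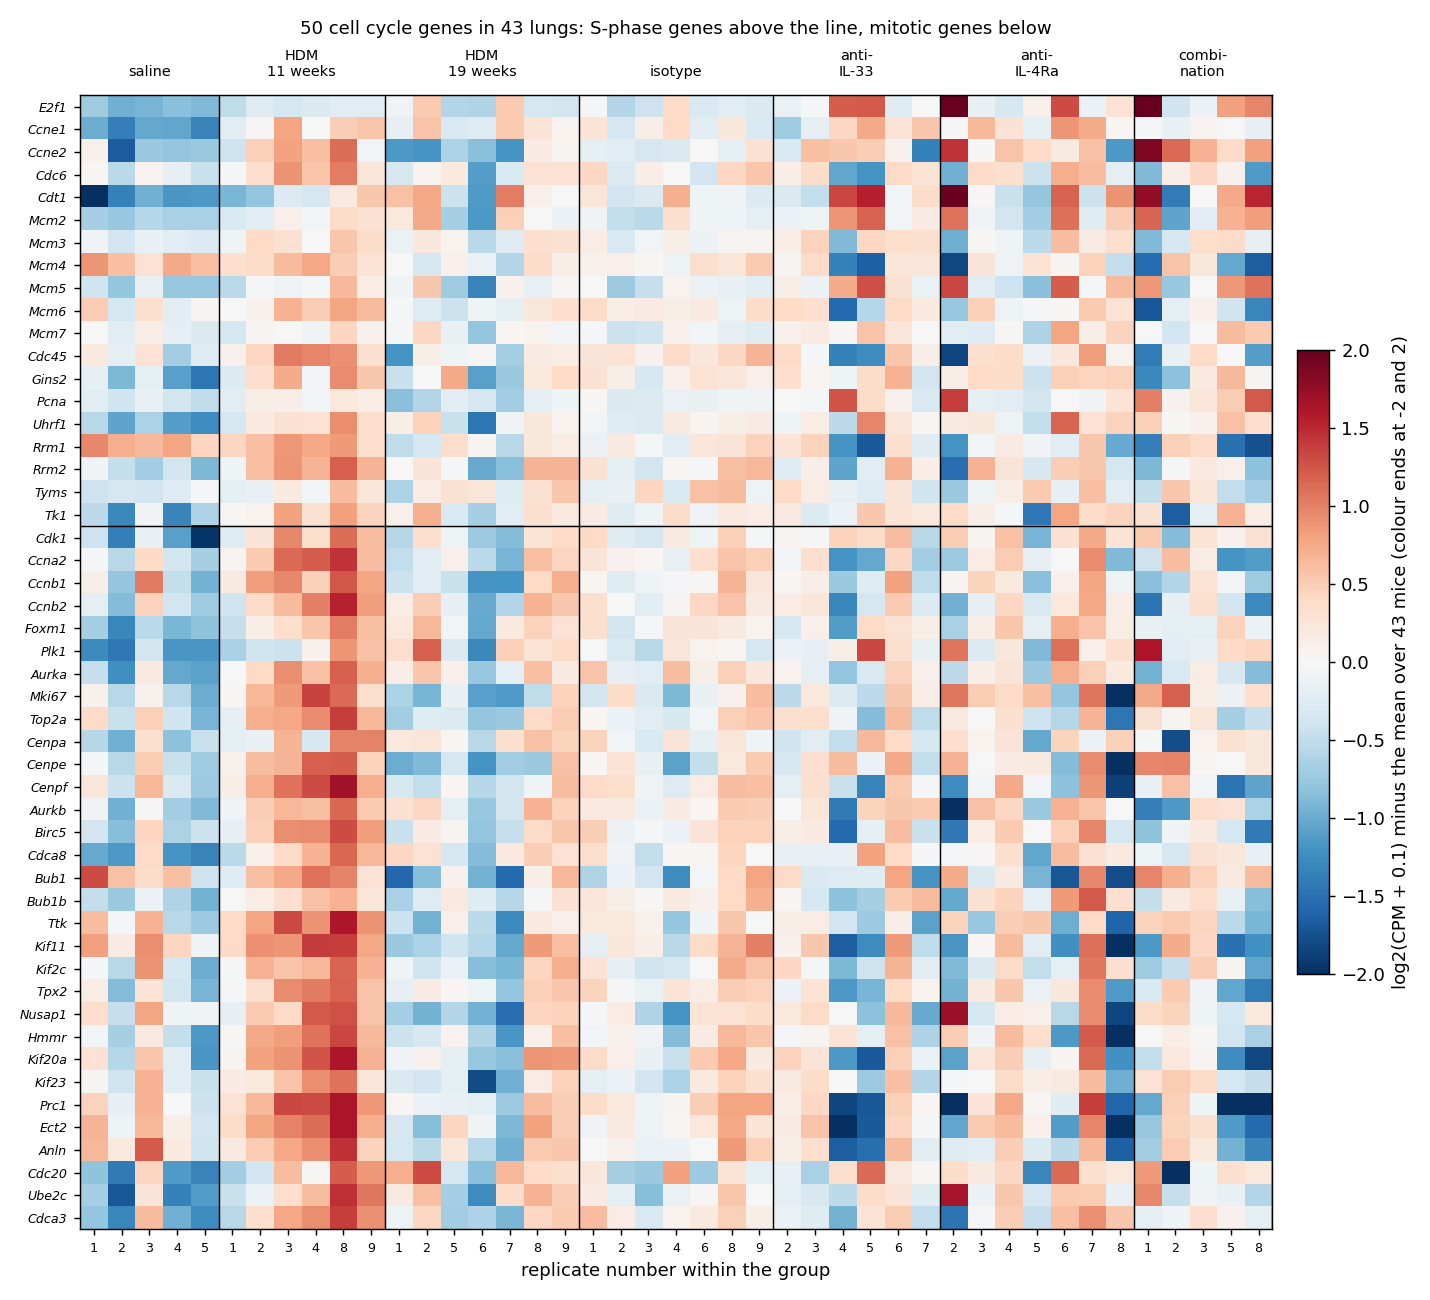
Log2(CPM + 0.1) of the 50 genes minus each gene's mean over 43 mice, by group and replicate number, S-phase genes above the horizontal line and mitotic genes below. Red is above and blue below the mean. At 11 weeks, replicate 8 is highest for 41 genes and replicate 1 lowest for 47, and the steep libraries show red and blue rows in both phases.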

How the data were processed

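The authors deposited a table of expected counts (estimated reads per NCBI Gene ID, not scaled to library size; 76.8% of nonzero values are whole). Per the labels' protocols, stranded mRNA libraries from 500 ng of RNA, amplified by 12 cycles of PCR, were read for 33 cycles as single reads. The genome build was mm10, per the submitters' processing notes. Not given in the sources used here: the aligner, counter, annotation and use of strand. So overlapping, antisense and near-identical genes are uncertain.

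Expected counts were rounded, filtered (edgeR filterByExpr), scaled by TMM and fitted over all 43 libraries with a mean per group (edgeR 4.0.16 quasi-likelihood in R 4.3.3, 36 residual degrees of freedom). Tests were 2-sided, with Benjamini-Hochberg adjustment over 15979 genes. SE is that of the log2 fold change. CPM values use TMM-scaled library sizes, and log2 CPM a prior count of 1. GC slopes used 15821 genes with GENCODE transcripts. Depth of 11.9 to 26.7 M counts limits genes of 1 to 2 CPM most. The 50 members and all gene lists were chosen with earlier results of these data known, and any member could be named. Alternatives were DESeq2 1.42.0, its size factors, no filter, the replicate number as a block, the GC slope as a covariate, no steep libraries, the compared groups alone, limma 3.58.1 voom with sample weights, other prior counts and each library left out. Promoter windows are RefSeq's, the first listed start of each gene. The fit was tested on simulated data.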

Additional observations from a re-analysis of the deposited data

Results flagged for a closer look

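In each group of 5 to 7 mice, the mouse farthest from the others was compared with the range of the group for each of the 50 genes. Of 350 such sets, 19 held a mouse beyond Dixon's critical value, a share near the 1 in 20 that chance gives. Of 21 sets of phase means, 0 did. The 19 values are therefore listed as a description. In saline, 5 fell on replicate 3, the mouse with skin and basal epithelial genes: Plk1 at 5.25 CPM, Birc5 at 6.05, Cdca8 at 6.08, Cdc20 at 11.43 and Cdca3 at 8.33 CPM. At 19 weeks, replicate 9 was high in Cenpe (10.25 CPM) and Cenpf (10.12 CPM). With isotype, replicate 3 was low in Gins2 (2.11 CPM) and replicate 8 high in Ect2 (7.72 CPM).

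Of the remaining 10 values, 9 were in steep libraries. With anti-IL-33, replicate 4 was low in Mcm3 (14.48 CPM) and high in Pcna (144.86 CPM), and replicate 5 was high in Plk1 (17.4 CPM). With anti-IL-4Ra, replicate 2 was high in Pcna (158.01 CPM) and Ube2c (18.15 CPM), and replicate 6 in Uhrf1 (30.44 CPM). In the combination, replicate 1 was high in Plk1 (21.25 CPM) and Ube2c (11.28 CPM), replicate 5 was high in Foxm1 (11.04 CPM), and replicate 2, the only one of these libraries that was not steep, was low in Cenpa (1.53 CPM).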

How the results depend on the processing

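Counts of genes called at 11 weeks against saline (22) were 9 with the replicate block, 36 with the GC slope, 38 without steep libraries, 38 with the compared groups alone, 46 with voom, and 10 to 30 with 1 library left out. Over all genes tested the share called was 15.4% in the main fit. In the order of those settings it was 12.2%, 27.9%, 35.8%, 39.6%, 53.9% and 11.7% to 14.8%. At 19 weeks (11) the counts were 6 without a filter, 4 with the replicate block and 7 with the GC slope. They were 31 with voom and 5 to 14 with 1 library left out. The all-gene shares were 26.3%, 24.1%, 36%, 64.6% and 27.3% to 35.8%, against 34.8% in the main fit. For isotype against saline (10) the counts were 4 with the block, 17 without steep libraries (2 lower) and 18 alone (2 lower). They were 36 with voom and 3 to 13 with 1 library left out. The all-gene shares were 20.6%, 50.9%, 52.2%, 65.8% and 20.7% to 26.6%, against 25.3% in the main fit. For the combination (3) the counts were 0 with the block, 0 without steep libraries and 16 with voom (7 higher, 9 lower). They were 0 to 12 with 1 library left out. The all-gene shares were 3.45%, 4.18%, 58% and 1.29% to 49%, against 19% in the main fit. For 19 against 11 weeks (0) the counts were 1 with DESeq2, the GC slope or the groups alone, and 5 with voom. They were 0 to 2 with 1 library left out. The all-gene shares were 0.626%, 0.15%, 0.45%, 1.91% and 0 to 0.288%, against 0.106% in the main fit. Voom gave 1 for anti-IL-33 (0) and 9 for the interaction (0). Over all genes voom called 6.38% and 34.6% in these comparisons, where the main fit called 0. The S-phase median with anti-IL-33 (0.20) was 0.032 with the GC slope and 0.045 to 0.226 with 1 library left out, and that of the combination (-0.05) was 0.104 with voom. Small medians changed sign when 1 library was left out: the S-phase median of isotype against 19 weeks (-0.01 without 19-week replicate 6), the mitotic median with anti-IL-4Ra (0.10 without isotype replicate 8) and the S-phase median of the combination (0.01 without combination replicate 2). The combination's E2f1 turned to -0.06 without steep libraries. The cause of these shifts was not tested. The other 498 counts and medians under these alternatives moved by less, under 1.5 times for counts and under the spread between mice for medians. Leaving out the 2 libraries with skin and basal genes was chosen after seeing the data. Same-numbered mice of different groups did not deviate together (88 pairs, median r of -0.01, 31 over 0.1). Different-numbered mice had a median r of 0.01 (702 pairs, r from -0.75 to 0.81, 280 over 0.1). No pairing by number was seen, and within that spread a weak one would not show. Genes near 1 CPM have the fewest reads and the widest errors.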
